A study of Mus musculus with 18 samples.

Results

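The expression of 10 genes of the resident, iron-recycling macrophages of bone marrow was followed across 18 mice. The genes were Adgre1, C1qa, C1qb, C1qc, Vcam1, Spic, Hmox1, Slc40a1, Mertk and Vsig4. They were chosen by name as genes known from these cells, with earlier results of these data in view. All 10 had at least 1 probeset annotated to a single gene symbol, and the brightest of these by its mean stood for the gene. They are 10 of 18194 genes with such a probeset and 10 of 14505 genes whose mean lay above a lower limit of 3.30 on the log2 scale.

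Resident macrophages sit at the centre of erythroblastic islands, where they hold maturing red cell precursors, engulf the nuclei that these expel and clear dying cells and old red cells. Heme from the engulfed cells is opened by heme oxygenase, and the freed iron leaves the macrophage through the exporter ferroportin and returns to the erythroblasts. Not all of these genes mark macrophages alone: VCAM-1 is also made by marrow stromal and endothelial cells, and ferroportin also by red cell precursors.

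Expression was measured in total RNA of whole bone marrow on Affymetrix arrays, with 1 array for each mouse and each sample labelled a biological replicate. The mice were of the C57Bl6 strain. There were 4 wild-type (WT) mice, 4 mice made to overexpress the long non-coding RNA CCAT2 throughout the body with G as its allele (CCAT2-G), 4 made to do so with T (CCAT2-T) and 6 labelled CCAT2-GT. The CCAT2-G and CCAT2-T mice are together the 8 mice given as DRAI- and the CCAT2-GT mice the 6 given as DRAI+, a status that the labels do not spell out. What promoter drives the transgene, how many founder lines there were and how old the mice were, the labels used here do not say. Because the samples are whole marrow, a lower value from fewer macrophages and one from less RNA per macrophage cannot be told apart.

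The arrays were alike in their medians, which lay between 4.27 and 4.40, but not in other respects. The interquartile range was under 3.1 on 5 arrays, those of CCAT2-T replicates 1 and 2, of CCAT2-G replicate 1 and of WT replicates 1 and 2, and wider on the other 13. A stroma score, the mean log2 value of 45 genes of marrow stromal cells, bone matrix and endothelium that holds none of the 10 genes, was 6.09 in WT replicate 4, 6.22 in CCAT2-GT replicate 4 and 6.69 in CCAT2-GT replicate 6. The next highest mouse had 5.73 and the lowest 4.26. The female-specific RNA Xist was high in CCAT2-GT replicates 2, 3 and 5 and also in CCAT2-T replicate 3, so that 4 of the 18 mice, none of them WT, differed from the others in sex by this gene. The labels name no batch.

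C1qa, C1qb and C1qc encode the 3 chains of C1q, the recognition protein of the classical complement pathway, which also coats dying cells for uptake and is made largely by resident macrophages. The 3 genes lie side by side on chromosome 4, with no other gene between them in RefSeq. In the tables used here, 5 of the 10 genes had a matching RefSeq promoter (Mertk, C1qb, C1qc, Spic and Vsig4). The 250 bases before the promoter table's start of C1qb (chr4:136886201-136886450, minus strand), C1qc (chr4:136892915-136893164, minus strand) and Spic (chr10:88683024-88683273, minus strand, all GRCm38.p6) are shown as examples. The C1qc window reaches into the gene, whose RefSeq span runs to 136892936. Over the 18 mice Spic had r of 0.86 with C1qb and 0.92 with C1qc. Mertk, whose promoter is not printed, was about as close, with r of 0.88 and 0.91. Capitals mark matches on either strand to GAGGAA, a core of the site of the myeloid factor PU.1, and to TGCTGA, the half-site of Maf factors.
C1qb: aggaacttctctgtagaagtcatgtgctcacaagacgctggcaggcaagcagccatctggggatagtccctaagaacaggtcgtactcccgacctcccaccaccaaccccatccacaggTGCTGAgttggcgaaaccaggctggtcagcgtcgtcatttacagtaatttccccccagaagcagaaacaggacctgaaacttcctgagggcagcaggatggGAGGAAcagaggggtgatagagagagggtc
C1qc: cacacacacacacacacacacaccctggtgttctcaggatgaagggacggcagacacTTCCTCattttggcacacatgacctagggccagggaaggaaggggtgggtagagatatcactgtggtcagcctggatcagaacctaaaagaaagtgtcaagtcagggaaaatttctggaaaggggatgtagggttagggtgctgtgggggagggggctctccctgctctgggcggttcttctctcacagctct
Spic: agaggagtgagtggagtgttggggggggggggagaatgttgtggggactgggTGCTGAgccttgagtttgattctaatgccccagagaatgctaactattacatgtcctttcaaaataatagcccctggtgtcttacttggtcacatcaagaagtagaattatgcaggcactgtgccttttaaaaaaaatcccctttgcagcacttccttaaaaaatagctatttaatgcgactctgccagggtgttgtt
The C1qb window held 1 match to each motif, the C1qc window 1 to the PU.1 core and the Spic window 1 to the Maf half-site. Of the other promoters, that of Vsig4 held 2 matches to the PU.1 core and that of Mertk none to either. Among the 32851 RefSeq promoter windows of the same length, 23.3% held the PU.1 core and 16.1% the Maf half-site, so that such matches are common.

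The C1q genes varied over a wide range within every genotype. C1qa was at 7.72, 7.63, 5.67 and 8.88 in WT replicates 1 to 4 on the log2 scale. It was at 7.44, 8.73, 7.11 and 8.26 in the CCAT2-G mice and at 7.53, 7.49, 6.39 and 6.51 in the CCAT2-T mice. In the 6 CCAT2-GT mice the lowest value was 5.79, the median 7.54 and the highest 10.67. The groups overlapped throughout, and the highest and lowest mice, CCAT2-GT replicate 6 and WT replicate 3, were 31.9-fold apart. C1qc ran from 5.24 in WT replicate 3 to 10.26 in CCAT2-GT replicate 6, with group means of 7.26 ± 1.47 (SD, n = 4) in WT, 7.63 ± 0.79 (SD, n = 4) in CCAT2-G, 6.67 ± 0.75 (SD, n = 4) in CCAT2-T and 7.48 ± 1.82 (SD, n = 6) in CCAT2-GT mice. C1qb ran from 4.93 to 10.54 in the same mice, a range of 48.9-fold. In all 3 genes the order of the 3 highest mice was CCAT2-GT replicate 6, CCAT2-GT replicate 4 and WT replicate 4, which are also the 3 mice of highest stroma score. The other 2 probesets of C1qb followed the one used, with r of 0.96 and 0.98 over the mice.

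Adgre1 encodes the surface receptor F4/80, the standard marker of mouse macrophages. It was at 6.71, 6.67, 6.91 and 8.32 in WT replicates 1 to 4, at 6.54, 6.96, 7.34 and 6.95 in CCAT2-G and at 6.71, 6.45, 6.32 and 6.65 in CCAT2-T mice. In CCAT2-GT mice the lowest value was 6.70, the median 7.35 and the highest 8.97. WT replicate 4 and CCAT2-GT replicate 6 stood above all other mice, which lay at or under 7.40. CCAT2-GT replicates 2 to 5 fell within 7.33 to 7.40, above 10 of the 12 mice of the other genotypes, the exceptions being WT replicate 4 and CCAT2-G replicate 3.

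Vcam1 encodes the adhesion molecule that binds erythroblasts through their integrin in the island. WT mice had 8.94, 8.81, 7.91 and 10.47, CCAT2-G mice 8.91, 10.19, 8.57 and 9.68, and CCAT2-T mice 8.82, 8.55, 8.34 and 8.30. In CCAT2-GT mice it ran from 7.90 through a median of 8.70 to 11.27. The highest and the lowest mouse of the series were both CCAT2-GT mice, 10.3-fold apart. The other probesets of Vcam1 had r of 0.93 and 0.87 with the one used.

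Mertk encodes a receptor kinase that macrophages use to engulf dying cells and expelled nuclei. Its values were 4.87, 5.51, 4.59 and 7.34 in WT, 5.20, 6.26, 4.99 and 5.94 in CCAT2-G and 5.49, 5.23, 4.75 and 4.75 in CCAT2-T mice, and in CCAT2-GT mice the lowest was 4.65, the median 5.29 and the highest 8.34. Only the 3 stroma-rich mice exceeded 6.26. Vsig4 encodes CRIg, a complement receptor of resident macrophages. It was at 3.99, 3.15, 3.14 and 5.80 in WT, at 3.22, 4.10, 4.74 and 3.51 in CCAT2-G and at 3.71, 3.54, 3.21 and 3.50 in CCAT2-T mice. In CCAT2-GT mice it ran from 2.96 through a median of 4.60 to 8.91. CCAT2-GT replicate 6 had the highest value by far, while 6 of the 18 mice lay under the lower limit of 3.30, where an array measures differences poorly.

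Spic, Hmox1 and Slc40a1 form the iron-recycling arm. Spic encodes the heme-induced transcription factor Spi-C, on which iron-recycling macrophages of spleen and marrow depend. It was at 6.27, 5.91, 4.73 and 7.36 in WT, at 5.83, 6.81, 5.35 and 6.62 in CCAT2-G and at 5.81, 5.81, 5.14 and 5.30 in CCAT2-T mice, and ran from 4.80 through a median of 6.00 to 7.10 in CCAT2-GT mice. WT replicate 4 was highest and WT replicate 3 lowest, so that the full range of the series, 6.20-fold, lay within the WT group. Hmox1 encodes heme oxygenase 1. Its values were 7.50, 7.26, 6.28 and 8.96 in WT, 7.17, 7.81, 7.36 and 8.10 in CCAT2-G and 7.26, 6.96, 6.56 and 6.72 in CCAT2-T mice, with 6.42, 7.93 and 9.55 as the lowest, median and highest of the CCAT2-GT mice. CCAT2-T mice were low as a group, but each lay within the range of the WT mice. Slc40a1 encodes ferroportin, and its values were 9.56, 9.45, 9.17 and 10.30 in WT, 8.95, 9.65, 9.38 and 8.91 in CCAT2-G, 9.50, 9.53, 9.08 and 9.26 in CCAT2-T and from 9.05 through a median of 9.31 to 10.19 in CCAT2-GT mice. Its range of 2.61-fold was the narrowest of the 10 genes by the probesets used. The other probeset of Slc40a1 had an SD of 0.59 over the mice, against 0.39 for the one used. Its r was 0.84 with the one used and 0.63 with the stroma score, against 0.74 for the one used. The other probeset of Spic had r of 0.98 with the one used. Brightness was not compared between genes, since each probeset has its own response.

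**Figure D1:**
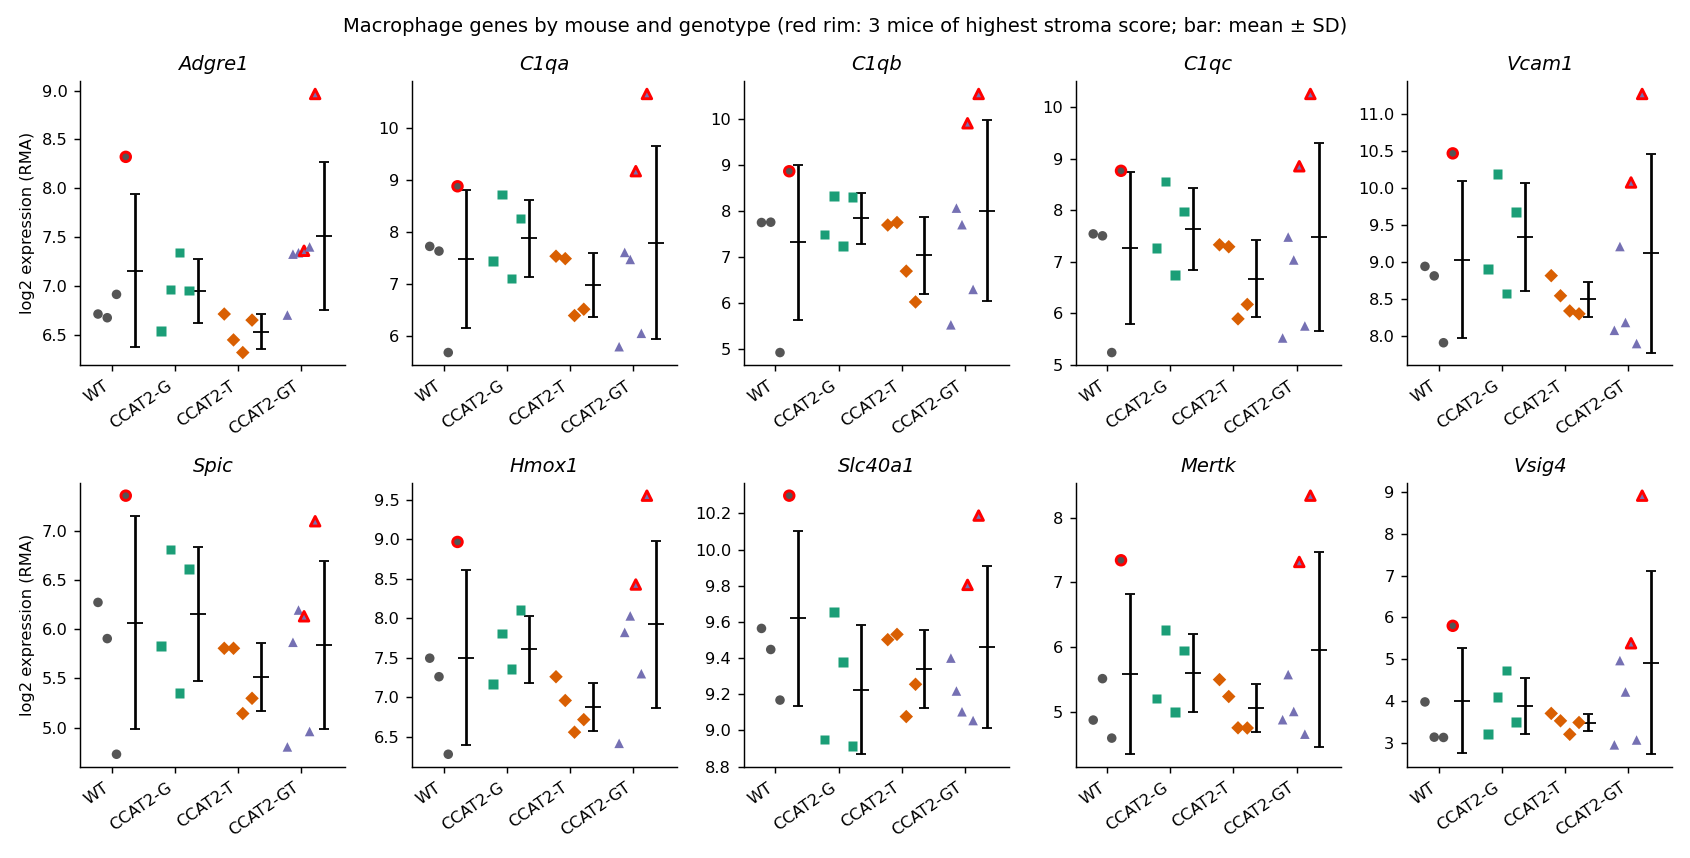
Log2 expression of the 10 macrophage genes in each of the 18 mice, by genotype (points are mice, bars the mean ± SD, each panel with its own log2 axis). The mice with a red rim, WT replicate 4 and CCAT2-GT replicates 4 and 6, are the 3 highest in 7 of the 10 genes, and the groups overlap in every panel.

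The 3 stroma-rich mice were the 3 highest for 7 of the 10 genes. For Adgre1, Vcam1 and Spic they held 2 of the 3 highest places, with CCAT2-GT replicate 5 in the remaining place for Adgre1 and CCAT2-G replicate 2 for Vcam1 and Spic. CCAT2-GT replicate 6 was the highest mouse for 8 genes and WT replicate 4 for the other 2, Spic and Slc40a1. WT replicate 3 was the lowest for 6 genes. The range of single mice inside the CCAT2-GT group exceeded the distance between the highest and lowest of the 4 genotype means for all 10 genes. It was 4.88 against 0.90 on the log2 scale for C1qa and 1.13 against 0.40 for Slc40a1. Single mice vary more than means, so that this outcome is favoured whatever the genotypes do. CCAT2-T had the lowest mean of the 4 genotypes for 9 genes, all but Slc40a1, for which it was CCAT2-G. The mean stroma score was also lowest in CCAT2-T mice, at 4.87.

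None of the 10 genes passed the test between DRAI+ and DRAI- mice, which of the 3 comparisons by DRAI status gave the largest median difference. All 10 were higher in DRAI+ mice, with a median log2 difference of 0.46 against -0.01 over all 14505 genes. In the lists for stroma, endothelium and B cells limma also called no gene in this comparison. There 16 of 17 stromal niche genes and 14 of 16 endothelial genes were higher in DRAI+ mice, with medians of 0.38 and 0.30. None of 9 B-cell genes was higher, with a median of -1.44, and 8 of them had an unadjusted p under 0.05. Without the 3 mice of highest stroma score, none of which is a DRAI- mouse, 7 of the 10 macrophage genes had a negative difference. The part of the B-cell genes in these differences was not tested. With limma and Benjamini-Hochberg adjustment over all genes at a threshold of 0.05, 0 of 10 were called, as were 0% of all genes. An unadjusted p under 0.05 was found for 1388 of all genes (9.57%) and for 1 of the 10 members, about the same share. This member, Adgre1, averaged 7.52 ± 0.76 (SD, n = 6) in the DRAI+ mice. The DRAI- mice averaged 6.74 ± 0.33 (SD, n = 8), a difference of 0.77 (SE 0.30, 95% interval 0.16 to 1.39, limma, unadjusted p = 0.0167, adjusted p = 0.486). The macrophage phagocytic receptor Vsig4 differed by 1.23 (SE 0.68, interval -0.20 to 2.66), Hmox1 by 0.68 (SE 0.42, interval -0.19 to 1.55) and Mertk by 0.63 (SE 0.53). C1qb differed by 0.56 (SE 0.70), C1qa by 0.36 (SE 0.65) and C1qc by 0.33 (SE 0.66). Vcam1 (0.20, SE 0.49), Slc40a1 (0.18, SE 0.19) and Spic (0.01, SE 0.39) lay nearest to 0. In no gene were the groups apart without overlap, as they were for 0.0965% of all genes.

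The medians of the DRAI+ and DRAI- groups lay closer together than their means for 8 of the 10 genes. The median of DRAI+ mice exceeded that of DRAI- mice by 0.67 for Adgre1, 0.71 for Hmox1 and 1.07 for Vsig4, close to the differences of their means. For Mertk the medians differed by 0.07 where the means differed by 0.63, and for C1qa by 0.08 where the means differed by 0.36. For C1qc, Slc40a1 and Vcam1 the medians differed by -0.02, -0.01 and 0.0023. CCAT2-GT replicates 4 and 6 had the highest values of their group for Mertk and all 3 C1q genes. Without the 3 stroma-rich mice, DRAI+ against DRAI- gave -0.70 for C1qa, -0.54 for C1qb, -0.71 for C1qc and -0.57 for Vcam1. It gave -0.38 for Spic, -0.30 for Mertk and -0.0889 for Slc40a1, and none of these 7 was called. Only the DRAI+ group loses mice in this comparison, CCAT2-GT replicates 4 and 6. Lower differences are therefore favoured by the choice of the mice left out.

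Against WT mice none of the differences passed the test. In DRAI+ against WT 8 of 10 genes were higher, with a median of 0.34, and limma called 0 of 10, as it did 0% of all genes, while 382 of all genes and no member had an unadjusted p under 0.05. The differences ran from -0.22 (SE 0.47) for Spic to 0.90 (SE 0.81) for Vsig4, with Adgre1 at 0.36 (SE 0.35) and Hmox1 at 0.42 (SE 0.50). In DRAI- against WT 1 of 10 genes, C1qb, was higher, with a median of -0.24, and limma again called 0 of 10 and 0% of all genes, with 197 of all genes and no member at an unadjusted p under 0.05. Adgre1 differed by -0.41 (SE 0.33), Slc40a1 by -0.34 (SE 0.22) and C1qa by -0.05 (SE 0.73). The groups of both comparisons overlapped for every member, and were apart for 0.751% and 0.062% of all genes. Both comparisons share the same 4 WT mice, of which replicates 3 and 4 lie at opposite ends for most of these genes. Leaving out WT replicate 3 turned DRAI+ against WT to -0.29 for C1qa, -0.12 for C1qb, -0.45 for C1qc and -0.29 for Vcam1, and leaving out WT replicate 4 turned DRAI- against WT to 0.42 for C1qa, 0.23 for Hmox1 and 0.34 for Mertk.

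**Figure D2:**
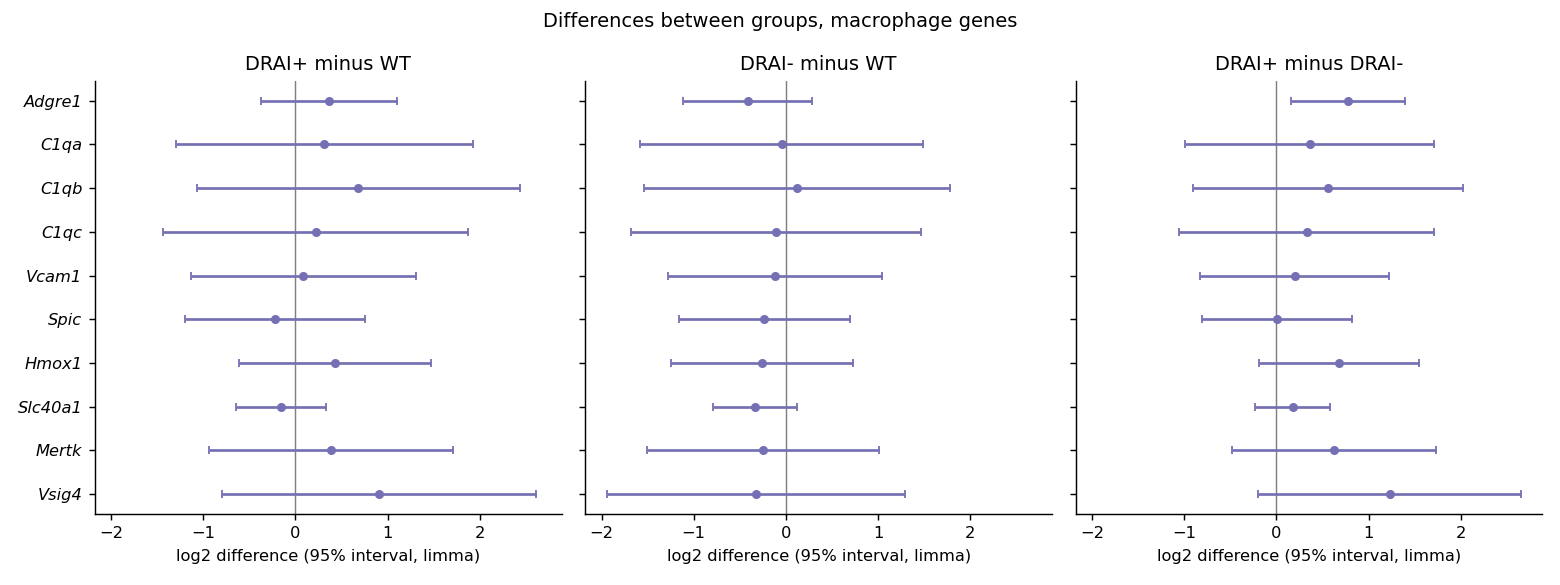
Log2 differences of the 10 macrophage genes in DRAI+ against WT, DRAI- against WT and DRAI+ against DRAI- mice (points, with 95% intervals from limma as bars). The only interval that leaves out 0 is that of Adgre1 in DRAI+ against DRAI- mice, 0.16 to 1.39, and it did not pass after adjustment over all genes.

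Among the genotypes, CCAT2-GT against CCAT2-T mice gave the widest gap for these genes. All 10 were higher, with a median of 0.86, but limma called 0 of 10 and 0% of all genes. In the same comparison 17 of 17 stromal niche genes, 14 of 16 endothelial and 8 of 12 bone matrix genes were higher. Their medians were 0.71, 0.36 and 0.14. The mean stroma score was 4.87 in CCAT2-T mice, against 5.31 in WT, 5.33 in CCAT2-G and 5.35 in CCAT2-GT mice. Adgre1 differed by 0.98 (SE 0.35, unadjusted p = 0.0118, limma adjusted p = 0.354) and Hmox1 by 1.05 (SE 0.49, unadjusted p = 0.0449, limma adjusted p = 0.390). Both belong to the 1827 genes, 12.6% of all, with an unadjusted p under 0.05. The other comparisons of genotypes (CCAT2-G against WT, CCAT2-T against WT, CCAT2-G against CCAT2-T and CCAT2-GT against CCAT2-G) likewise had 0 of 10 members and 0% of all genes called by limma, with no member and 228, 451, 912 and 770 of all genes at an unadjusted p under 0.05. Every member was lower in CCAT2-T than in WT mice, by a median of -0.53, and 9 of 10 were higher in CCAT2-G than in CCAT2-T mice, by a median of 0.69. Between CCAT2-T and WT mice 16 of 17 stromal niche genes were also lower, with a median of -0.60. So were 12 of 16 endothelial genes and 6 of 12 bone matrix genes. A test of any difference among the 4 genotypes called 0 of 10 members and 0% of all genes in limma, with no member and 709 of all genes at an unadjusted p under 0.05.

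All 10 genes rose with the stroma score across the mice. Each gene was fitted on the score with limma over all 18 arrays. The slope passed for 10 of 10 members, all in the upward direction, where 10.8% of all genes passed in either direction and 5.84% in the upward one. The score is the mean of 17 stromal niche, 12 bone matrix and 16 endothelial genes and was chosen with the relation in these data already known. In every sample the genes and the score come from the same array and the same normalization.

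The C1q genes had the steepest slopes. For each log2 unit of the score C1qb rose by 2.01 (adjusted p = 4.06e-08), C1qc by 1.94 (adjusted p = 1.68e-10) and C1qa by 1.89 (adjusted p = 1.59e-10). C1qa and C1qc were ranked 11 and 12 by p among the 14505 genes, the stromal and endothelial genes of the score included. The score accounted for 94.0% of the variance of C1qa over the mice, and the 4 genotypes for 7.65%. Pearson's r over the 18 mice was 0.97 for C1qa and C1qc and 0.93 for C1qb, with Spearman's rho of 0.92, 0.92 and 0.88 (permutation tests with 100000 resamples, two-sided, p of r = 1e-05 for each, the smallest they can give).

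The genes of adhesion, engulfment and iron followed with shallower slopes. Vsig4 rose by 1.78 (adjusted p = 0.000207), Mertk by 1.51 (adjusted p = 2.04e-07) and Vcam1 by 1.35 (adjusted p = 2.55e-07) for each log2 unit of the score. Hmox1 rose by 1.20 (adjusted p = 7.89e-07), Spic by 1.03 (adjusted p = 5.87e-06) and Slc40a1 by 0.44 (adjusted p = 0.0035). Adgre1, the general macrophage marker, rose by 0.71 (adjusted p = 0.00687). In the permutation test Mertk and Vcam1 had r of 0.92, Hmox1 0.91 and Spic 0.88 (each p = 1e-05), Vsig4 0.80 (p = 6e-05), Slc40a1 0.74 (p = 0.00054) and Adgre1 0.69 (p = 0.0017). Spearman's rho was lowest for Adgre1, at 0.50 (p = 0.0347), and for Slc40a1, at 0.55 (p = 0.0193). These 10 correlations are 1 family. Their permutation p-values are not adjusted, and the adjusted values over all genes belong to the limma slopes, a different test.

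**Figure D3:**
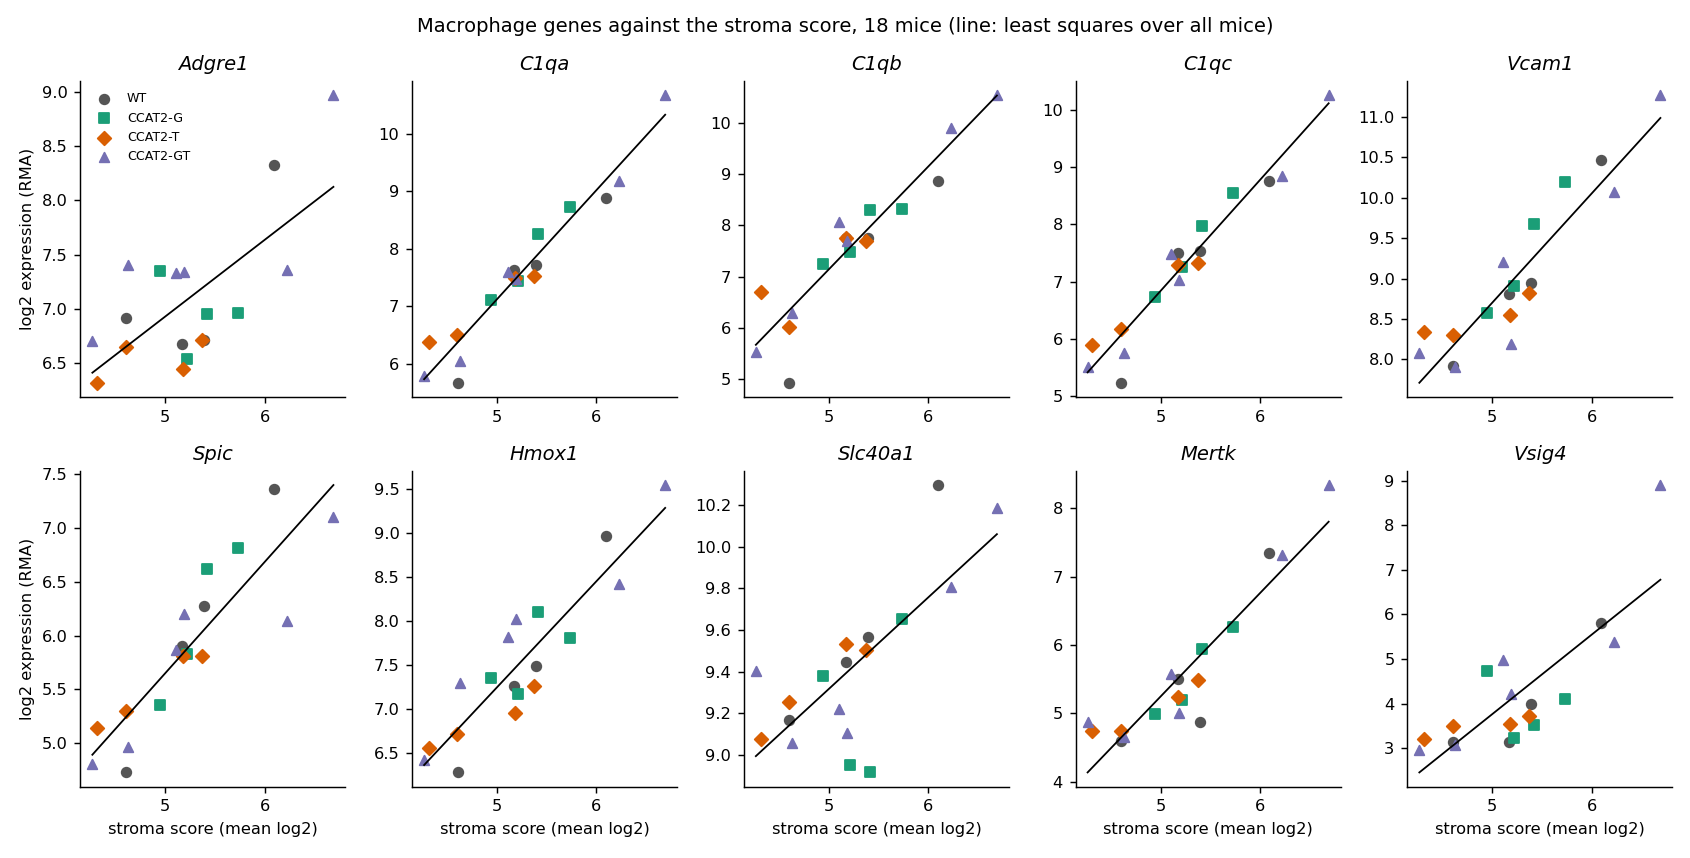
Log2 expression of each macrophage gene against the stroma score in the 18 mice (points, by genotype), with the least-squares line. The point farthest from the lines of C1qa and C1qc is WT replicate 3, at -0.70 and -0.84 from them, while CCAT2-GT replicate 6, at the right edge, stands 2.13 above the line of Vsig4 and 0.84 above that of Adgre1.

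The relation held for 7 genes without the extreme mice and not for the other 3. Without the 3 stroma-rich mice limma still called C1qa, C1qb, C1qc, Vcam1, Spic, Hmox1 and Mertk, while 12.5% of all genes passed. Over those 15 mice r was 0.94 for C1qa and C1qc, 0.92 for Spic, 0.86 for C1qb, 0.80 for Vcam1, 0.78 for Mertk and 0.77 for Hmox1. Adgre1 then had a slope of 0.11 (adjusted p = 0.748), Slc40a1 one of 0.18 (adjusted p = 0.416) and Vsig4 one of 0.64 (adjusted p = 0.169). For Adgre1 r was 0.48 (permutation p = 0.0624) without the 2 mice farthest from the median score, CCAT2-GT replicates 4 and 6. With WT replicate 4 left out as well, r of Adgre1 was 0.14 (permutation p = 0.629). Leaving out CCAT2-GT replicate 6 alone gave r of 0.50 (permutation p = 0.0374). Leaving out CCAT2-GT replicate 4 alone gave 0.71 (permutation p = 0.00238), so that this mouse did not carry the relation. The next values are again without CCAT2-GT replicates 4 and 6. Without both, Slc40a1 had r of 0.59 (permutation p = 0.0159) but rho of 0.37 (permutation p = 0.159). Vsig4 then had r of 0.65 (permutation p = 0.00668) and rho of 0.61 (permutation p = 0.0144). Without CCAT2-GT replicate 6 alone the slope of Adgre1 was 0.44 (adjusted p = 0.201), that of Slc40a1 0.40 (adjusted p = 0.0539) and that of Vsig4 1.12, and 4.92% of all genes were called. Within genotypes, as deviations of both measures from the 4 genotype means, r was 0.97 for C1qa and C1qc and 0.69 for Adgre1. Over the 13 wider arrays r ran from 0.78 for Slc40a1 to 0.97 for C1qa and C1qc.

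Differences between DRAI+ and DRAI- mice were refitted with the stroma score as a covariate, and limma called none of the 10 genes. The C1q genes then differed by -0.13 (C1qa), 0.05 (C1qb) and -0.17 (C1qc), and Spic by -0.26. Adgre1 differed by 0.61 (SE 0.22, limma unadjusted p = 0.0104, adjusted p = 0.417), Hmox1 by 0.38 (SE 0.17, limma unadjusted p = 0.0391, adjusted p = 0.466) and Vsig4 by 0.80 (SE 0.40). Against WT mice with the same covariate, C1qb differed by 0.61 (SE 0.28) in DRAI+ and 0.56 (SE 0.26) in DRAI- mice. C1qa differed there by 0.25 (SE 0.18) and 0.37 (SE 0.18), and limma called none of these. The 5 narrow arrays, none from a CCAT2-GT mouse, all lay below the stroma line for Adgre1, Vcam1, Hmox1 and Vsig4, with mean residuals of -0.50 for Adgre1, -0.34 for Hmox1 and -0.72 for Vsig4. Over the wider arrays alone, with no covariate, DRAI+ against DRAI- gave 0.67 for Adgre1, 0.61 for Hmox1 and 1.11 for Vsig4, none of them called. In the same arrays DRAI+ against WT gave -0.10 for Adgre1. The only WT mice left there are replicate 3 and the stroma-rich replicate 4, with Adgre1 at 6.91 and 8.32.

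The 10 genes were correlated with each other, and less closely once the stroma-rich mice were left out or the stroma score was taken into account. Over all 18 mice the 45 pairs had r between 0.58 and 1.00 with a median of 0.85, the highest between C1qa and C1qc and the lowest between Adgre1 and Spic. Over the 15 mice without the stroma-rich ones the median was 0.57. There C1qa, C1qc and Spic stayed together (r of 0.97 between C1qa and Spic and 0.96 between C1qc and Spic), as did Vcam1 and Mertk (0.92), whereas Adgre1 had r of 0.04 with C1qc and -0.17 with Slc40a1. Adgre1 still had r of 0.57 with Vsig4 and 0.55 with Hmox1 in those 15 mice. Among the residuals from the stroma lines, 11 of 45 pairs were below 0 and the median was 0.28. C1qa and C1qc still had r of 0.93 and C1qa and C1qb 0.74. Spic had r of 0.55 with C1qc and 0.19 with C1qb. Adgre1 had r of 0.78 with Vsig4 and 0.72 with Hmox1. Vcam1 had r of 0.68 with Mertk, 0.61 with C1qc and 0.60 with C1qa. These values are descriptions of mice that share a normalization, and CCAT2-GT replicate 6 contributes to the pair of Adgre1 and Vsig4 with residuals of 0.84 and 2.13.

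**Figure D4:**
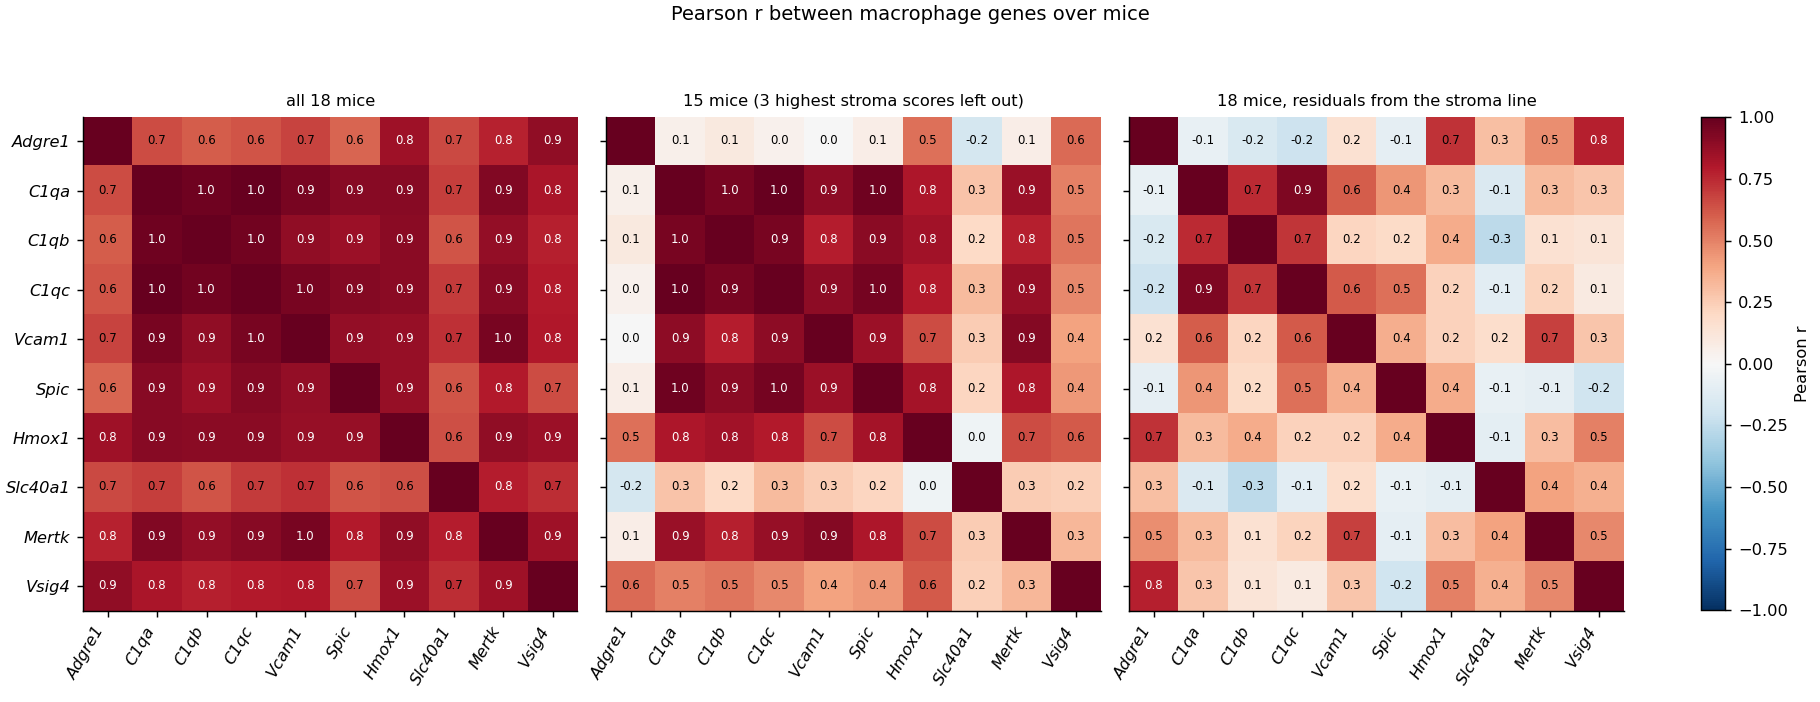
Pearson r between each pair of macrophage genes over all 18 mice (left), over the 15 mice without the 3 highest stroma scores (middle) and for residuals from each gene's line on the stroma score (right), on a colour scale from -1 to 1. The C1q genes stay together in all panels, and in the middle one Adgre1 keeps r of 0.57 with Vsig4 and 0.55 with Hmox1 and is near 0 with the C1q genes.

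Most genes on the list of resident macrophages and efferocytosis were also called higher with the score, while most genes of iron handling and of erythroblastic islands did not pass. Which marrow cells gave the values of the listed genes was not tested. Of 36 measured genes of resident macrophages and efferocytosis, 23 were higher with the score by limma and none lower, with a median slope of 0.49 against -0.0015 for all genes. They include Axl, a receptor kinase of the same family as Mertk (1.78), Gas6, the ligand of both (1.69), the mannose receptor Mrc1 (1.76), Fcna (1.53), the macrophage-secreted Cd5l (1.46), the phosphatidylserine receptor Timd4 (1.37) and the transcription factor Maf (1.12). Timd4 was at 5.92 in WT replicate 4 and 7.13 in CCAT2-GT replicate 6 and at or under 3.74 in every other mouse, including the stroma-rich CCAT2-GT replicate 4. It lay under the lower limit of 3.30 in 11 of 18 mice. Siglec1, which encodes CD169 and is a defining marker of island macrophages, had a slope of 0.13 (adjusted p = 0.382), with values between 4.76 and 5.47. Csf1r, the receptor for macrophage growth factor that monocytes also carry, had a slope of -0.10 (adjusted p = 0.797).

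Of 27 genes of iron and heme handling 3 were called higher with the score and none lower, with a median slope of 0.07. These were the heme and hemoglobin pathway members Blvra, which encodes biliverdin reductase (0.42), Cd163, the hemoglobin scavenger receptor (0.91), and Fth1, the ferritin heavy chain (0.29). Of 14 genes of contact in erythroblastic islands 3 were called higher: Igf1 (1.16), Palld (0.42) and the integrin chain Itgb1 (0.41). Of 19 further complement genes 7 were called higher, among them the C1 inhibitor Serping1 (2.14) and clusterin, Clu (1.71), and 2 lower, the anaphylatoxin receptor C5ar1 (-0.65) and the integrin chain Itgam (-0.53). Between DRAI+ and WT mice no gene of these 4 lists was called by limma. There the members of smallest unadjusted p were Gclc (-0.38) and the hepcidin gene Hamp (0.26) for iron, Fcgr4 (0.57) and Cd36 (-0.53) for resident macrophages, Calr (0.34) and Cr2 (-0.85) for complement, and Itga4 (-0.23) and Rb1 (-0.27) for islands, with unadjusted p from 0.0151 to 0.0903 in limma.

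No gene on the lists for monocytes, mature neutrophils, lymphocytes or red cell precursors was called higher with the stroma score by limma. In the lists that form the score, 16 of 17 stromal niche genes, 7 of 12 bone matrix genes and 12 of 16 endothelial genes had a called slope, which the construction of the score favours. Cxcl12, the chemokine of niche stroma, had a slope of 2.20, the collagen gene Col1a1 0.28 and the endothelial cadherin Cdh5 0.54. Of 16 monocyte genes none was called higher and 3 were called lower, Cx3cr1 (-0.65), Klf4 (-0.68) and Lyz2 (-0.21), as were 4 of 9 genes of mature neutrophils. Of 8 osteoclast genes 4 were higher and 1 lower. None of 13 erythroid, 9 B-cell, 8 T and NK cell, 8 dendritic cell and 10 skeletal muscle genes was called, with Klf1, the erythroid transcription factor, at 0.06.

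**Figure D5:**
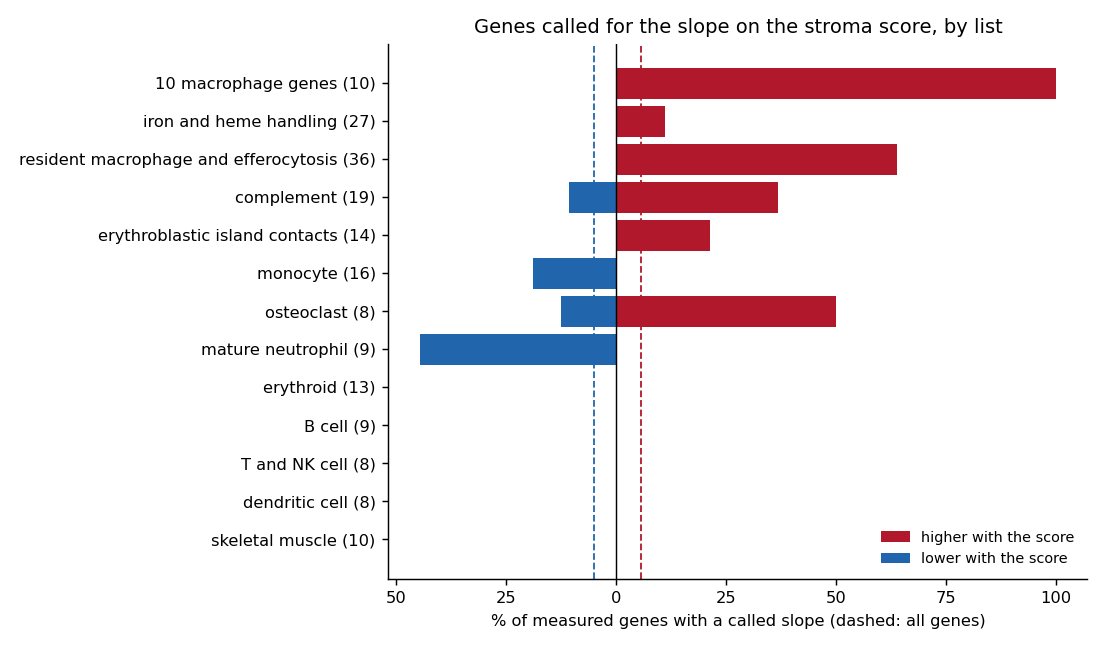
Share of the measured genes of each list with a limma slope on the stroma score called higher (red, to the right) or lower (blue, to the left), in percent, with the number of measured genes in brackets and the shares over all genes as dashed lines. The 10 macrophage genes stand at 100%, the list of resident macrophages at 63.9% and iron and heme handling at 11.1%.

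By Pearson's r none of the 10 genes was correlated with the mean of the monocyte genes or with that of the erythroid genes at an unadjusted permutation p under 0.05. By Spearman's rho Slc40a1 had -0.49 with the monocyte mean (unadjusted permutation p = 0.0413). The largest r with the monocyte mean was 0.36, for Adgre1 (permutation p = 0.145), and with the erythroid mean 0.29, for Slc40a1 (permutation p = 0.241). Without the 3 stroma-rich mice the r of Adgre1 with the monocyte mean was 0.61 (permutation p = 0.0173) and that of Slc40a1 -0.57 (permutation p = 0.0268), neither adjusted for the 20 correlations of this kind. The lists for other cells in the stroma-rich mice were not alike: the mean of the osteoclast genes was 7.16 in CCAT2-GT replicate 4, 6.77 in CCAT2-GT replicate 6 and 6.65 in WT replicate 4, while skeletal muscle genes were at 6.71 in WT replicate 4, 4.33 in CCAT2-GT replicate 4 and 4.60 in CCAT2-GT replicate 6. The part of these other cells in the values of the 10 genes was not tested.

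The genes whose values over the 18 mice were most like those of each member were named by the highest Pearson r. For C1qa they were Sema6d (0.98), Axl (0.97) and Fcna (0.97), and for C1qc Fcna (0.98), Axl (0.97) and Igfbp7 (0.97). C1qb was nearest to Sema6d (0.95), Igfbp7 (0.94) and Fstl1 (0.94). Vcam1 was nearest to Gpx8 (0.97), Mrc1 (0.96) and Selenop (0.95), and Spic to Mrc1 (0.94), Fcna (0.93) and Prxl2b (0.93). Of these, Axl, Mrc1 and Fcna are on the list of resident macrophages. Igfbp7 and Fstl1 had r of 0.99 with the stroma score itself. Hmox1 was nearest to Lgmn (0.96), Aif1 (0.94) and Rai14 (0.94), Mertk to Islr (0.96), Lhfp (0.95) and Dpysl3 (0.95), and Vsig4 to Rnase4 (0.95), Cttnbp2nl (0.95) and Abca8a (0.95). Adgre1 was nearest to Kctd12b (0.94), Adgrg6 (0.94) and P2rx4 (0.93), and Slc40a1, with the weakest likeness of the 10, to Lum (0.88), Ak1 (0.87) and Hpgds (0.87). Of these 30 pairs only that of Slc40a1 and Lum involves a gene of the stroma score. Genes outside the score could still follow it closely. Axl had r of 0.98 with it, Sema6d and Selenop 0.97 and Islr 0.92, and Adgrg6 the lowest, 0.66. Over the 15 mice without the stroma-rich ones, r was 0.57 for Slc40a1 with Lum and 0.72 for Vsig4 with Rnase4. For C1qa with Sema6d it was 0.96.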

How the data were processed

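Bone marrow RNA of 18 mice was hybridised to Affymetrix arrays, per the labels' protocols. The authors deposited log2 expression values for 45101 probesets, normalized with RMA per the submitters' processing notes. The sources used here do not give the RMA version or software. A value is relative to the rest of its array. Arrays give no read depth, and their number limits the precision.

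Gene names came from the platform annotation, which lists 1 symbol for 34958 probesets (those used), several for 932 and none for 9211. The brightest probeset stood for each of 18194 genes, and genes with a mean under the 30th percentile of probeset means (3.30) were left out, leaving 14505. The members and all gene lists were chosen with earlier results of these data known. Groups and replicate numbers were taken from the labels. The numbers were not used as pairs.

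Differences and slopes came from limma 3.58.1 (R 4.3.3; lmFit and trended eBayes) over the 18 arrays, as 3 groups for DRAI status, 4 for genotype, or on the stroma score, two-sided, with Benjamini-Hochberg adjustment over all genes and a threshold of 0.05. The p-values of limma set a difference or slope against the spread between these mice. Correlations used Python 3.11.15 and scipy 1.17.1 with 100000 permutations. The fit was tested on simulated data. Named were all 10 members, per pathway list the 2 genes of smallest p in DRAI+ against WT and for the slope, further slope genes as examples chosen after their values were seen, Cxcl12, Col1a1, Cdh5, Csf1r, Siglec1, Cd163 and Klf1 whatever their values, and the 3 genes most like each member. The rule names 1 more gene, not reported here. Alternatives concerned scaling, filter, probesets, eBayes, weights, blocks, covariates and arrays left out.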

Additional observations from a re-analysis of the deposited data

Results flagged for a closer look

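Adgre1 in WT replicate 4 was 8.32, apart from the other WT mice, of which the nearest had 6.91. Adgre1 in CCAT2-GT replicate 6 was 8.97, and the nearest mouse of that genotype had 7.40. These were the 2 groups, among 40 combinations of gene and genotype examined, in which 1 mouse stood farther from the rest than Dixon's 95% limit allows. Chance alone would do so in about 1 in 20 groups. Both mice are among the 3 of highest stroma score.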

How the results depend on the processing

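The counts of members called were the same for all 8 group comparisons and the genotype test under every alternative, at 0 of 10. The count of all genes called differed: array weights gave 456 for DRAI+ against WT and 2 for CCAT2-GT against CCAT2-T. Leaving out CCAT2-G replicate 3 gave 7 for DRAI+ against DRAI-, 2 for CCAT2-GT against CCAT2-G and 1 for CCAT2-GT against CCAT2-T. CCAT2-G against CCAT2-T gave 1 under quantile normalization, the 50th percentile filter and without CCAT2-T replicate 1 or CCAT2-GT replicate 3. All other settings gave 0. For the stroma slope 8 to 10 members were called when each mouse was left out in turn, 7 without the stroma-rich mice, 8 with the replicate block (537 of all genes against 1563, and 714 without CCAT2-GT replicate 6), 9 with the 50th percentile filter, which leaves out Vsig4, or with bone matrix genes alone (Adgre1 0.71, adjusted p = 0.0781), and 10 otherwise. With the replicate block Adgre1 had 0.56 (adjusted p = 0.159) and Slc40a1 0.35 (adjusted p = 0.314). The replicate numbers mark no shared litter or day in the labels. Of 24 pairs with the same number in different groups, 11 had deviations from their group means correlated over 0.1. Their r ran from -0.36 to 0.67, with a median of 0.0861. Among 96 pairs with different numbers 34 did so, with a median of -0.0674. The 5 narrow arrays are all replicates 1 or 2. Whether the numbers mark mice processed together cannot be told from this check. Members correlated with the monocyte mean numbered 1 without the narrow arrays and 2 without the stroma-rich mice, and with the erythroid mean 1 (Vcam1, 0.52) without its 2 farthest mice.

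Several differences, none called in any setting, changed sign, and the cause was not tested. Leaving out the stroma-rich mice takes mice from the DRAI+ and WT groups and none from the DRAI- group. Leaving out the narrow arrays keeps replicates 3 and 4 as the only WT mice. DRAI+ against WT turned with array weights for C1qa (-0.40), C1qb (-0.20), C1qc (-0.55) and Vcam1 (-0.25), without the stroma-rich mice for C1qa (-0.28), C1qc (-0.31) and Vcam1 (-0.21), with the replicate block for C1qc (-0.0402) and Vcam1 (-0.15), with the narrow arrays as a block for Vcam1 (-0.0529), without them for Adgre1 (-0.10), Vcam1 (-0.0698) and Mertk (-0.00648), with the sex score for Spic (0.0506) and Slc40a1 (0.0935), and without the Xist-high mice for Slc40a1 (0.18). DRAI- against WT turned without the stroma-rich mice for C1qa (0.42), C1qc (0.39), Vcam1 (0.36), Mertk (0.34), Vsig4 (0.27), Hmox1 (0.23) and Spic (0.20), with the stroma covariate for C1qa (0.37), C1qc (0.32), Vcam1 (0.19), Mertk (0.0777) and Vsig4 (0.0463), with array weights for C1qb (-0.0761), Vcam1 (0.12), Vsig4 (0.11) and Mertk (0.0589), without the narrow arrays for C1qa (0.12) and C1qc (0.0655), without the Xist-high mice for C1qa (0.10) and C1qc (0.0712), and with the sex score for C1qa (0.14), C1qc (0.0904) and Vcam1 (0.0395). DRAI+ against DRAI- turned without the stroma-rich mice for C1qa (-0.70), C1qb (-0.54), C1qc (-0.71), Vcam1 (-0.57), Spic (-0.38), Mertk (-0.30) and Slc40a1 (-0.0889), with array weights for C1qa (-0.37), C1qb (-0.12), C1qc (-0.43), Vcam1 (-0.37), Spic (-0.34) and Slc40a1 (-0.0118), with the stroma covariate for C1qa (-0.13), C1qc (-0.17), Vcam1 (-0.15) and Spic (-0.26), with the replicate block for Vcam1 (-0.0323) and Spic (-0.0831), and for Spic with quantile normalization (-0.0332) and without the narrow arrays (-0.000859).

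Leaving out each mouse in turn, DRAI+ against WT ranged from 0.0696 to 0.75 for Adgre1, -0.29 to 0.78 for C1qa, -0.12 to 1.19 for C1qb, -0.45 to 0.72 for C1qc, -0.34 to 0.56 for Vcam1, -0.67 to 0.21 for Spic, 0.0171 to 0.91 for Hmox1, -0.31 to 0.0683 for Slc40a1, -0.0946 to 0.97 for Mertk, 0.11 to 1.50 for Vsig4. DRAI- against WT ranged from -0.57 to -0.0258 for Adgre1, -0.65 to 0.42 for C1qa, -0.68 to 0.63 for C1qb, -0.78 to 0.39 for C1qc, -0.49 to 0.36 for Vcam1, -0.68 to 0.20 for Spic, -0.66 to 0.23 for Hmox1, -0.49 to -0.11 for Slc40a1, -0.58 to 0.34 for Mertk, -0.62 to 0.27 for Vsig4. DRAI+ against DRAI- ranged from 0.48 to 0.94 for Adgre1, -0.21 to 0.76 for C1qa, 0.0567 to 1.06 for C1qb, -0.22 to 0.72 for C1qc, -0.23 to 0.44 for Vcam1, -0.24 to 0.22 for Spic, 0.36 to 0.98 for Hmox1, 0.0333 to 0.26 for Slc40a1, 0.15 to 0.89 for Mertk, 0.43 to 1.62 for Vsig4. Signs turned by more than 0.1 past 0 without WT replicate 3 or 4, without CCAT2-GT replicate 4 or 6 and, for C1qa in DRAI- against WT, without CCAT2-T replicate 3.

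The 4 WT mice and the spread of the CCAT2-GT mice limit what could be called: the interval of C1qa in DRAI+ against WT ran from -1.30 to 1.93. Vsig4 lay near the lower end of the array's scale in 6 mice.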
